A study of Homo sapiens with 12 samples.

Results

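The cap immunoprecipitation (Cap IP) of U2OS cells stably carrying eIF4E-Flag was compared with the input RNA of the same cells. U2OS is an established human osteosarcoma line. Every row of the gene count table that passed the filter on low counts was a member of the comparison, which gave 12460 of 58684 rows, measured in 6 of the study's 12 libraries (3 input, 3 Cap IP). The other 6 libraries are input and Cap IP of U2OS cells with the vector in place of eIF4E-Flag and serve here as the reference comparison. The labels give no treatment and do not say which promoter drives the transgene, whether the line is 1 clone, or whether replicates came from separate cultures. The p-values thus reflect the variation among these libraries alone, which may be technical.

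The m7G cap is a methylated guanosine joined to the first nucleotide of RNA polymerase II transcripts soon after initiation. It protects the 5′ end from decay and is bound by the nuclear cap-binding complex and, in the cytoplasm, by eIF4E, which recruits the eIF4G scaffold and the ribosome. RNA polymerase III transcripts are not given this cap. A trimethylated form of it is carried by the U3 snoRNA and by the snRNAs that RNA polymerase II makes. Most snoRNAs are trimmed out of introns, and mitochondrial transcripts are made by another polymerase without capping. A pulldown through the cap is meant to separate these classes from mRNA.

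Total counts were 1743397, 1491450 and 1672507 in the input replicates and 1420138, 1474341 and 1206321 in the Cap IP replicates. At these depths 3 counts correspond to 1.19 to 1.56 CPM (counts divided by the scaled library size, written as the usual CPM) in input and 2.90 to 3.08 CPM in Cap IP. Input libraries detected 22052 to 24530 rows and Cap IP libraries 18002 to 18928. The 20 most abundant rows took 13.5 to 16.2% of input counts and 26.2 to 29.5% of Cap IP counts. Of the osteoblast and mesenchymal markers, COL1A1 (collagen I) stood at 591, 572 and 714 CPM in input, and the summed list at 1642 to 2080 CPM. VIM (vimentin), also in this sum, was at 672, 750 and 882 CPM. Its row held 14.5, 13.9 and 12.4% of the input counts of VIM and VIM-AS1, the row on the opposite strand. Summed epithelial markers were at 2483 to 4039 CPM. Nearly all of this was KRT8 (1909, 2036 and 3107 CPM) and KRT18 (523.8, 566.0 and 864.5 CPM), which lie opposite each other. CDH1 was at 5.865 to 9.488 CPM and CLDN4 at 8.798 to 20.25 CPM, so the sums do not rank the lists as wholes. Neuronal markers reached 112 to 147 CPM and blood markers 6.35 to 9.49 CPM. The part of other cell types in the results was not tested. SP7, ALPL, SPP1 and BGLAP, which define mature osteoblasts, were too low to be tested. In bulk RNA, fewer cells of a type and less RNA per cell cannot be told apart.

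A feature of the counts touches every row below. Where 2 genes have exons on opposite strands of the same stretch, the row opposite an abundant mRNA can hold most of the pair's counts. The ferritin heavy chain mRNA FTH1 held 5.71, 5.58 and 4.29% of the counts of the FTH1 and BEST1 pair in input, and BEST1, an ion channel gene, held the rest. The library kit marks strand, but no source used here states the strand setting of the counting. Values are therefore those of a row under its deposited name, and which strand's RNA a row counted was not tested.

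Several noncoding RNAs with deep losses are shown by their 5′ ends, since that is where an m7G cap would sit. Each line gives the first 60 bases of the record in GENCODE release 44 on GRCh38. The first base of the record is in capitals and need not be the first transcribed base.
RN7SK, chr6:52995621-52995680, plus strand: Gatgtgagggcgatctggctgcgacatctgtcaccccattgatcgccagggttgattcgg
RMRP, chr9:35657958-35658017, minus strand: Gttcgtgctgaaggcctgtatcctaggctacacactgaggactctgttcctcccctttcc
RPPH1, chr14:20343348-20343407, minus strand: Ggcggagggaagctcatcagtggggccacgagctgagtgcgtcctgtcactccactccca
SNORD3A, chr17:19188016-19188075, plus strand: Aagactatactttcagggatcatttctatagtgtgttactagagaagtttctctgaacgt
SCARNA10, chr12:6510222-6510281, plus strand: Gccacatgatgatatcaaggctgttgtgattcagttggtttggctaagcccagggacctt
In these records RN7SK, RMRP, RPPH1 and SCARNA10 start with G, and SNORD3A, the U3 snoRNA, starts with A.

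Abundant RNA polymerase III transcripts were almost absent from Cap IP. RN7SL1, which forms the core of the signal recognition particle, had 3270, 3684 and 4039 counts in the input replicates and 1, 5 and 6 in Cap IP. Its log2 change was -8.74 ± 0.59 (SE; adjusted p = 7.80e-09, edgeR quasi-likelihood test with Benjamini-Hochberg adjustment, as for every adjusted p below unless another tool is named). RN7SK, which holds the elongation factor P-TEFb inactive, went from 6835, 5885 and 9212 counts to 11, 9 and 11, a log2 change of -8.38 ± 0.57. RMRP, the RNA of RNase MRP, went from 5526, 6264 and 5624 counts to 3, 14 and 11 (-8.19 ± 0.58), and RPPH1, the RNA of RNase P, from 3215, 5343 and 5198 to 12, 14 and 14 (-7.36 ± 0.50). In each of these rows the lowest input library was far above the highest Cap IP library.

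Lower-abundance members moved the same way. RN7SL5P, a signal recognition particle pseudogene that can share reads with RN7SL1, had 48, 64 and 12 input counts and 0 in all Cap IP libraries, which makes it at least 19.2-fold lower when Cap IP is set to 3 counts in sum. RNU6ATAC, the U6 snRNA of the minor spliceosome, had 28, 36 and 19 input counts and again 0, at least 12.8-fold lower. The exception was BCYRN1, a neuronal RNA polymerase III transcript, at 200, 95 and 186 input counts and 63, 44 and 41 Cap IP counts (log2 change -0.59 ± 0.43, adjusted p = 0.280). Its scaled levels overlapped between the groups, and the value was -1.43 (adjusted p = 0.0165) with total counts as library sizes. In all, 6 of the 7 tested members of this list fell and 0 rose, against 23.3% of all tested rows called lower. The 2 rows at 0 in Cap IP passed the count filter only through other libraries, so this tally is a description. The list holds 22 rows, 13 of which had any count.

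Of the RNAs with a trimethylguanosine cap, SNORD3A fell from 604, 745 and 796 CPM to 36.9, 71.5 and 39.7 CPM, a log2 change of -3.85 ± 0.43 (adjusted p = 2.58e-06). Its remaining Cap IP level was above that of RN7SL1, RN7SK, RMRP and RPPH1 in every Cap IP library. RNU12, the U12 snRNA, stood at 24.5, 28.4 and 18.2 CPM in input and 8.21, 23.2 and 7.93 CPM in Cap IP (log2 change -0.84, adjusted p = 0.142); without Cap IP replicate 2 it was -1.57 with an adjusted p of 0.0287, and with total counts -1.73 with one of 0.00565. RNU4-1 (0.32) and SNORD3B-2 (0.08) had at most 14 counts in any of the 6 libraries and were not called. Only these 4 of 27 listed rows passed the filter, and 1 of them was called, beside 45.1% of all tested rows.

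Small nucleolar and Cajal body RNAs, which guide modification of rRNA and snRNA, were lower as well. SNORA73B went from 57.7, 101 and 86.7 CPM to 8.21, 9.66 and 3.97 CPM (log2 change -3.47 ± 0.40, adjusted p = 2.91e-06). SNORD55 had 44, 41 and 43 counts in input and 2 in each Cap IP library (-3.27 ± 0.50), and SNORA57 had 52, 89 and 48 against 0, 6 and 5 (-3.00 ± 0.60). SNORD33, SNORA71A, SNORD17 and SNORA21 had 0 Cap IP counts, with bounds of at least 15.9-fold, 9.75-fold, 6.65-fold and 6.35-fold lower. Of 10 tested snoRNA rows 8 fell and 0 rose, beside 23.3% of all tested rows lower and 21.9% higher. The 4 at 0 passed the count filter only through other libraries, so the tally is a description. The class has 400 rows.

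SCARNA2 showed the same drop at higher abundance, from 110, 155 and 184 CPM to 13.3, 29.0 and 18.8 CPM (log2 change -2.87 ± 0.40, adjusted p = 1.68e-05). SCARNA10 had 50, 31 and 75 input counts and 0 in Cap IP, at least 24.1-fold lower. SCARNA13, SCARNA12, SCARNA22 and SCARNA7 were likewise at 0, with bounds from 5.26-fold to 15.9-fold. SCARNA21 kept 1 Cap IP count of 49 in input, a log2 ratio of -4.51 (95% counting interval -9.84 to -1.96). SCARNA17 was not called (-1.16, adjusted p = 0.182) and was at -1.97 (adjusted p = 0.0227) with total counts as library sizes. Of the 8 tested scaRNA rows 7 were lower, beside 23.3% of all tested rows. The 5 at 0 in Cap IP likewise passed the filter only through other libraries, so this tally is a description.

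**Figure D1:**
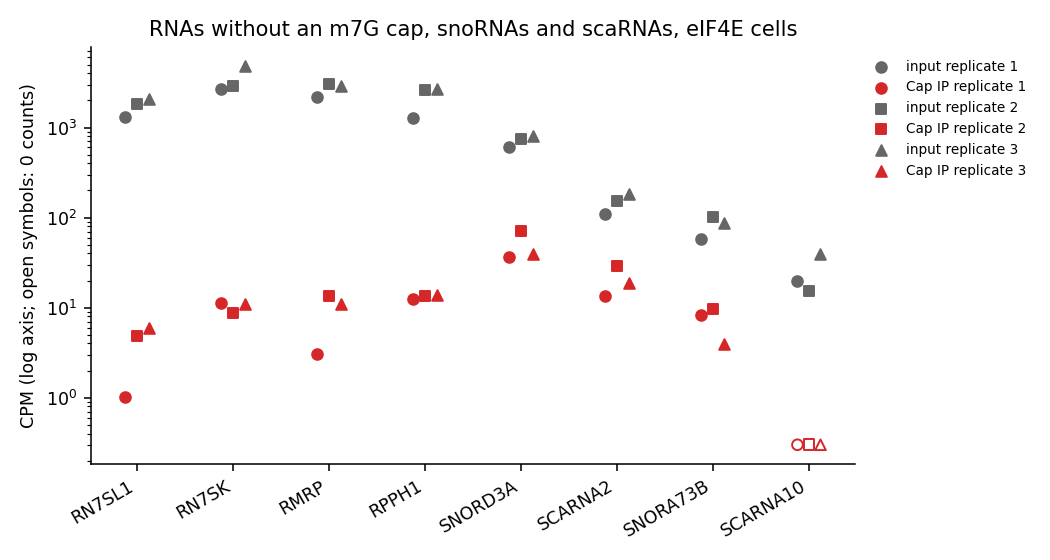
CPM on a log axis for 8 noncoding RNAs in each eIF4E library, grey for input and red for Cap IP, with 1 symbol shape per replicate and open symbols at the bottom for 0 counts. Every Cap IP point lies below every input point of its row, and RN7SL1 falls from 1293 to 2097 CPM in input to 1.03 to 5.95 CPM in Cap IP.

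Among mitochondrially encoded mRNAs, the 3 cytochrome c oxidase subunits fell: MT-CO1 from 984, 1308 and 1795 CPM to 191, 125 and 189 CPM (log2 change -3.02 ± 0.34, adjusted p = 2.42e-06). MT-CO2 changed by -2.77 ± 0.43 and MT-CO3 by -2.15 ± 0.46. MT-ATP6, an ATP synthase subunit, was at -1.28 (adjusted p = 0.0216), a call lost without Cap IP replicate 2 (adjusted p = 0.109) or without input replicate 3 (adjusted p = 0.0561). In these 4 rows no Cap IP library reached the level of any input library. They were 4 of 13 tested members, beside 23.3% of all tested rows lower.

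The 9 other mitochondrial mRNAs were not called, though some were under other settings. MT-ND5, a complex I subunit, had 6391, 5737 and 4881 CPM in input and 15259, 3654 and 7013 CPM in Cap IP. MT-ND6, encoded on the other strand, had 1807, 5246 and 4674 CPM in input and 6503, 4367 and 6631 CPM in Cap IP. For both, Cap IP replicates 1 and 3 were above all inputs and replicate 2 was below at least 2 of them. Log2 changes of the remaining members were -0.03 for MT-ND1, 0.19 for MT-ND2, -0.04 for MT-ATP8, -0.46 for MT-ND4, -0.66 for MT-ND4L, -0.38 for MT-CYB and -1.30 for MT-ND3 (adjusted p = 0.0511). MT-ND3 was called lower without Cap IP replicate 1 (-2.40, adjusted p = 0.00160), with total counts (-2.21, 0.00318), with DESeq2 size factors (0.0457), with no filter (4.19e-05) and with the 6 eIF4E libraries alone (0.0359). MT-ND4L was called lower with total counts (-1.53, adjusted p = 0.0131) and with no filter (-0.85, 0.0382), and MT-ND4 (-1.32, 0.0310) and MT-CYB (-1.22, 0.0487) with total counts. The list median was -0.46, and the medians of the 3 Cap IP to input ratios by shared title stem (C10V2F, C6VI2F and C6IV2F, which are replicates 1, 2 and 3) were 0.22, -1.53 and -0.82.

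Among mitochondrial tRNA and rRNA rows, MT-TC (cysteine tRNA) fell from 130, 129 and 209 CPM to 8.21, 14.5 and 9.92 CPM (log2 change -3.83 ± 0.36), and MT-TY (tyrosine tRNA) changed by -3.18 ± 0.42. MT-TE (glutamate tRNA) rose from 7.91, 6.35 and 12.5 CPM to 131, 34.8 and 63.5 CPM (3.10 ± 0.75, adjusted p = 0.00248). MT-TT, MT-TA and MT-TP were also called higher (2.44, 1.64 and 1.73), but without Cap IP replicate 1 these were 1.24, 0.90 and 0.85 with adjusted p of 0.159, 0.299 and 0.313. MT-TA and MT-TP also lost their calls without input replicate 1 (0.0719 and 0.102) or 2 (0.0956 and 0.0861), and MT-TA without input replicate 3 (0.0742). The class therefore held 4 rows higher, 2 lower and 6 not called of 12 tested, beside 21.9% of all tested rows higher and 23.3% lower.

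Over the whole table, 2726 rows were higher in Cap IP, 21.9% of those tested, and 2899 were lower, 23.3%. Either call covered 45.1% of rows, and in 54.8% the 3 Cap IP and 3 input libraries did not overlap. A change of at least 2-fold was reached by 5096 called rows. By the fitted values 452 called rows were at least 8-fold lower and 112 at least 8-fold higher. These 2 tallies are descriptions. Of the tested rows 109 had 0 counts in all 3 Cap IP libraries, and 106 of them were called lower. Such rows passed the count filter only through other libraries, and the size of their loss was not measured. Scaled library sizes were also smaller in Cap IP (974548 to 1035438) than in input (1926056 to 2529610). With total counts as library sizes, the median of all rows moved to -0.99 and the called rows split into 1101 higher and 5866 lower, 15.8% higher in place of 48.5%. On that scale 27 of the 152 rows examined singly lost their call, all of them rows called higher: KRT8, ABALON, HIST1H1E, HIST2H2AC, HIST1H2BN, RPS25, RPL26, RPS24, NPM1, EIF3L, EIF5B, EIF4E, EIF4E2, EIF4E3, TGS1, LSM3, HK2, MRPL34, GADD45A, PSMA4, DNAJB9, CYFIP1, PAIP1, ITPR1, MT-TT, MT-TA and MT-TP. On the same scale 8 rows gained a call, all lower: BCYRN1, RNU12, MT-ND3, MT-ND4, MT-ND4L, MT-CYB, SCARNA17 and MAT2A. Directions are otherwise relative to the trimmed-mean scaling.

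**Figure D2:**
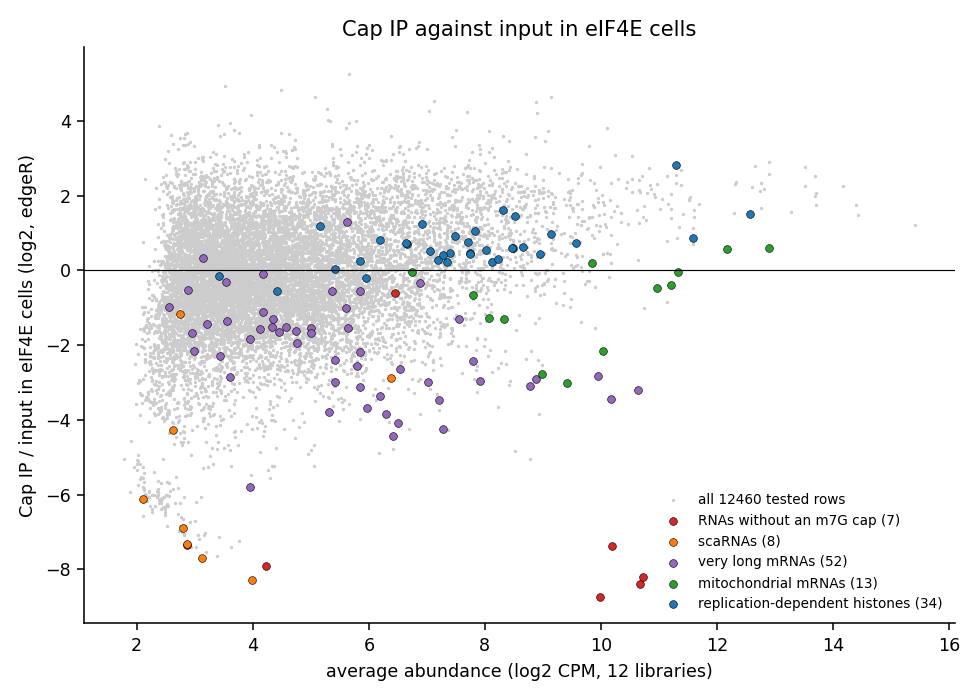
Average abundance (log2 CPM over 12 libraries) against the log2 change of Cap IP over input in eIF4E cells for 12460 rows, with 5 gene lists coloured. The abundant RNAs without an m7G cap stand alone at the lower right, near -8, very long mRNAs lie mostly below 0, and the histone rows mostly above it.

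Several of the steepest losses among mRNA rows were in genes with long transcripts. GCN1, a translation regulator that activates the GCN2 kinase, went from 138, 169 and 197 CPM to 4.10, 5.80 and 6.94 CPM (log2 change -4.88 ± 0.36, adjusted p = 2.22e-08), and no gene has an exon opposite to it. KMT2D, a histone H3 lysine methyltransferase, went from 161, 198 and 220 CPM to 8.21, 5.80 and 12.9 CPM (-4.42 ± 0.34). UBR4, a ubiquitin ligase, changed by -3.83 ± 0.31, LRP1, an endocytic receptor, by -4.24 ± 0.36, and FLNA, the actin crosslinker filamin A, by -3.20 ± 0.30 from 2998, 3004 and 3365 CPM to 343, 284 and 394 CPM. All Cap IP libraries were far below all inputs in these rows.

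Of 52 tested very long mRNAs, 39 were lower, beside 23.3% of all tested rows. The 1 that was higher was ITPR1 (1.31), which encodes a calcium release channel. Their median was -2.05, against -0.13 over all rows. The loss differed between the stems, with medians of -2.29, -2.49 and -0.79. Without both C6IV2F libraries, a setting added after seeing this, the median was -2.44. The summed level of the list was 12387 to 13325 CPM in input and 1519 to 2221 CPM in Cap IP. The list is a choice of genes, and 35 of its tested rows had an exon opposite. Losses were less uniform over all protein-coding rows with a longest annotated transcript over 12000 bases. With no exon opposite, 46 of 100 such rows were lower and 6 higher, with a median of -1.05. Opposite a protein-coding gene, 14 of 44 were lower and 14 higher, with a median of -0.09.

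Many collagen and matrix rows were lower too. Whether this follows transcript length or GC content was not tested. COL1A1 fell from 591, 572 and 714 CPM to 139, 84.0 and 135 CPM (log2 change -2.39 ± 0.32, adjusted p = 1.11e-05). COL5A1, a fibril-forming collagen, changed by -2.03 ± 0.37. COL6A3, of microfibrillar collagen VI, had 121, 86 and 57 input counts and 1 in each Cap IP library, a log2 ratio of -5.35 (95% counting interval -7.64 to -3.79). Of 27 tested collagens 18 were lower and 0 higher, beside 23.3% and 21.9% of all tested rows. Their median was -1.70, against -0.13 over all rows. The basement membrane proteoglycan HSPG2 went from 376, 348 and 477 CPM to 20.5, 17.4 and 24.8 CPM (-4.26 ± 0.34), and LDLRAD2, the row opposite to it, from 720, 743 and 1098 CPM to 34.9, 30.9 and 23.8 CPM (-4.83 ± 0.32). Both rows fell, and the share of HSPG2 in the pair went from 34.3, 31.9 and 30.3% in input to 37.0, 36.0 and 51.0% in Cap IP.

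AGRN, another matrix proteoglycan, changed by -2.95 ± 0.46 and TNC, tenascin C, by -2.64 ± 0.36. Matrix glycoproteins had 11 rows lower and 2 higher of 23 tested. The laminin chain LAMA5 changed by -3.30 ± 0.35 and the integrins ITGA5 and ITGB4 by -2.42 ± 0.40 and -2.75 ± 0.47. Laminins and integrins together had 12 lower and 3 higher of 22. Over all tested rows 23.3% were lower and 21.9% higher. The mesenchymal receptor PDGFRB (-1.79) and N-cadherin CDH2 (-1.38) were lower too, CDH2 with an adjusted p of 0.0578 without input replicate 1 and 0.0765 and 0.0671 without Cap IP replicates 2 and 3.

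Transcript length was followed over protein-coding rows with no exon opposite. The median log2 change was 0.36 for longest annotated transcripts up to 1 kilobase (1000 bases, n = 159), -0.38 between 2000 and 3000 bases (n = 899) and -1.07 between 8000 and 12000 bases (n = 375). Spearman's rho across 4639 such rows was -0.300 with length and -0.406 with GC content, given as descriptions since genes are not independent and share the 6 libraries. By stem, rho with length was -0.352, -0.353 and -0.0783, and rho with GC content -0.305, -0.254 and -0.565. The third stem, C6IV2F, therefore stood apart from the others on both properties. In vector cells the values over all stems were -0.435 with length and -0.201 with GC content.

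**Figure D3:**
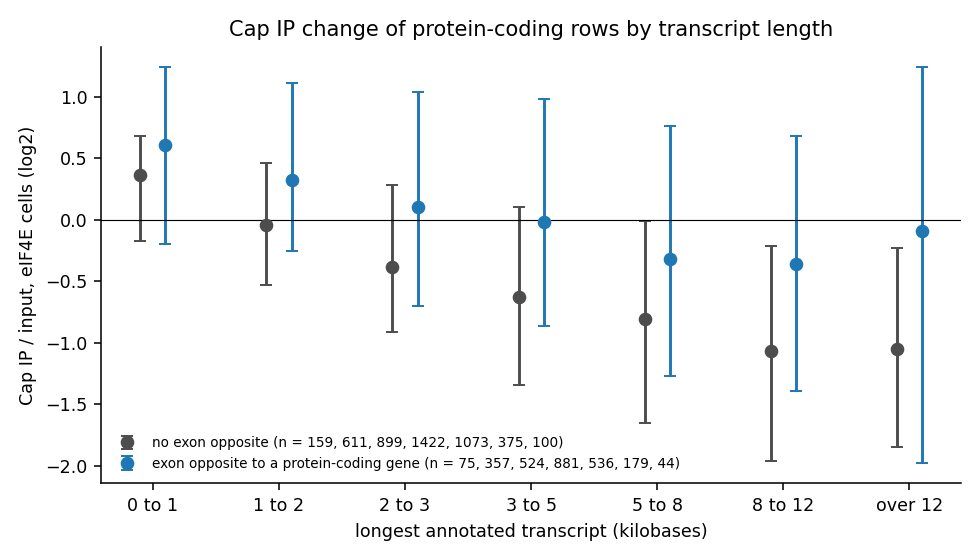
Median log2 change of Cap IP over input (points) with quartiles (bars) for protein-coding rows by length of the longest annotated transcript, grey for rows with no exon opposite and blue for rows opposite a protein-coding gene. The grey medians fall from 0.36 in the shortest class to about -1.07 in the longer classes, and the blue medians lie above them in every class.

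Replication-dependent histone mRNAs, which are short, capped and end in a stem-loop in place of a poly(A) tail, included no row called lower. HIST1H4I rose from 1174, 618 and 849 CPM to 10687, 4533 and 3381 CPM (log2 change 2.82 ± 0.42, adjusted p = 3.24e-05). HIST1H1E, a linker histone, rose from 2194, 1768 and 4027 CPM to 7161, 7689 and 8096 CPM (1.52 ± 0.40). HIST1H2BN changed by 1.61 ± 0.46 and HIST2H2AC by 1.47 ± 0.43; the latter had an adjusted p of 0.0760 without Cap IP replicate 1 and 0.0512 without input replicate 2. Of 34 tested histone rows 8 rose and 0 fell. The share that rose is near the 21.9% of all tested rows, while 23.3% of all rows fell. The list median was 0.60, beside -0.13 over all rows. By stem (C10V2F, C6VI2F and C6IV2F) the histone median was 0.85, 1.05 and -0.01, beside -0.13, -0.11 and -0.09 over all rows. In C6IV2F the list thus lay close to all rows. With total counts as library sizes the histone median was -0.24, above the -0.99 of all rows on that scale. Several histone genes are near-identical copies, so reads may be split between rows.

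Few cytosolic ribosomal protein rows were called. RPS25 rose from 216, 209 and 334 CPM to 604, 678 and 624 CPM (log2 change 1.33 ± 0.27, adjusted p = 5.92e-04). RPL26 was at 1.05 ± 0.28 and RPS24 at 0.89 ± 0.27, a call lost without input replicate 2 (adjusted p = 0.0607). Of 81 tested rows 8 rose and 1 fell (RPS10L, -2.06; adjusted p of 0.0756, 0.101 and 0.0550 without input replicate 1 and Cap IP replicates 1 and 2), beside 45.1% of all rows called. Their median was 0.25, and -0.56 when total counts set the library sizes. By stem (C10V2F, C6VI2F and C6IV2F) it was 0.49, 0.63 and -0.22, so the third stem had the other sign. The mRNAs outside the ribosome that share its 5′ terminal oligopyrimidine start were mixed, with 5 higher and 3 lower of 22. NPM1 (nucleophosmin) stood at 1.69 ± 0.43 and EIF3L at 1.27 ± 0.26, whereas the elongation factor EEF2 fell from 1258, 1478 and 1780 CPM to 448, 564 and 553 CPM (-1.53 ± 0.28) and LARP1, which binds the cap of such mRNAs, changed by -2.28 ± 0.29.

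EIF4E itself had 15.4, 13.2 and 11.9 CPM in input and 29.8, 25.1 and 26.8 CPM in Cap IP, with no overlap. The log2 change was 1.00 ± 0.34 (adjusted p = 0.0211) on 23 to 39 counts a library. That call was lost without Cap IP replicate 1 or 3 or without input replicate 2 or 3 (adjusted p of 0.0721, 0.0559, 0.0602 and 0.0515), and DESeq2 gave an adjusted p of 0.0597. Its relatives EIF4E2 (1.05 ± 0.32) and EIF4E3 (1.39 ± 0.47) were higher, EIF4E2 losing its call without Cap IP replicate 1 (adjusted p = 0.0744) and EIF4E3 without Cap IP replicate 1 or input replicate 2 (adjusted p of 0.123 and 0.0885). The scaffolds were lower: EIF4G1 fell from 528, 603 and 711 CPM to 101, 110 and 122 CPM (-2.47 ± 0.29, adjusted p = 3.47e-06) and EIF4G3 changed by -1.40 ± 0.41 (adjusted p = 0.0597 without Cap IP replicate 2). EIF4H (-1.35), a helicase cofactor, and EIF4ENIF1 (-1.54), the shuttling eIF4E partner, fell as well, and CYFIP1 (1.15) and PAIP1 (0.92) rose. CYFIP1 had an adjusted p of 0.0748 without Cap IP replicate 1, and PAIP1 one of 0.0605, 0.0521, 0.0557 and 0.137 without input replicates 2 and 3 and Cap IP replicates 2 and 3. With LARP1, 5 of 23 tested cap-binding and eIF4F rows were higher and 5 lower, beside 21.9% and 23.3% of all rows.

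Of the enzymes that make or modify caps, CMTR1, which methylates the first nucleotide, fell from 37.6, 31.3 and 42.6 CPM to 21.6, 8.69 and 7.93 CPM (log2 change -1.55 ± 0.38, adjusted p = 0.00297). TGS1, which trimethylates snRNA caps, was higher (1.47 ± 0.45), with an adjusted p of 0.0633 without Cap IP replicate 2. AHCY, which clears the methylation by-product, was lower (-0.93), with an adjusted p of 0.0563 without input replicate 3. MEPCE, which caps 7SK RNA with a methyl group, was lower (-0.74, adjusted p = 0.0292), a call lost without Cap IP replicate 2 or 3 or input replicate 1 (adjusted p of 0.0731, 0.0965 and 0.131). RNMT (0.34), FAM103A1 (0.04), PCIF1 (0.63), MAT2A (-0.42, or -1.29 with an adjusted p of 0.00439 with total counts) and MAT2B (0.85) were not called, and RNGTT, CMTR2 and DUSP11 were too low to be tested. The 9 tested rows thus gave 1 higher and 3 lower, beside 21.9% and 23.3% of all tested rows, which is no result about the list. Of 19 tested decapping and decay factors 1 was higher and 4 were lower, beside the same shares. UPF1 (-2.57), EDC4 (-2.27) and EDC3 (-2.05) fell and LSM3 (1.30) rose.

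Of 28 tested mRNAs reported as eIF4E targets, 3 rose and 2 fell, beside 21.9% and 23.3% of all rows. Their median was -0.15, or 0.05 with mitochondrial mRNAs as library sizes. CCNA2, cyclin A2, rose from 60.1, 56.2 and 39.5 CPM to 533, 535 and 333 CPM (log2 change 3.16 ± 0.42, adjusted p = 1.11e-05) and FGF2, a growth factor, from 25.7, 23.9 and 36.3 CPM to 143, 216 and 162 CPM (2.60 ± 0.34); both have a coding gene opposite, EXOSC9 and NUDT6. HK2 was at 1.18, with an adjusted p of 0.0503 without Cap IP replicate 2. BCL2L1 was at -1.01, with adjusted p of 0.0873 without Cap IP replicate 1 and 0.0641 without input replicate 3. Its row lies opposite ABALON, which rose by 1.16, and held 7.76, 7.61 and 6.38% of the pair's counts in input. Which strand's RNA the 2 rows counted was not tested.

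Lists of nuclear machines stand beside 23.3% of all tested rows lower and 21.9% higher. The spliceosome core had 13 rows lower and 4 higher of 43, with PRPF8 (-2.97 ± 0.28), SNRNP200 (-2.45 ± 0.29) and SF3B3 (-2.60 ± 0.34). RNA polymerase II and pausing factors had 6 lower and 3 higher of 27, with the largest subunit POLR2A at -2.22 ± 0.31 and the second largest, POLR2B, at 1.88 ± 0.41; POLR2B lies opposite IGFBP7. Nuclear pore and export rows had 9 lower and 2 higher of 34, with NUP214 at -3.56 ± 0.45 and NUP188 at -2.74 ± 0.33. Replication genes had 10 lower and 5 higher of 34, with the polymerases POLE at -3.03 and POLD1 at -1.65 below and CCNE2 (1.90) above.

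**Figure D4:**
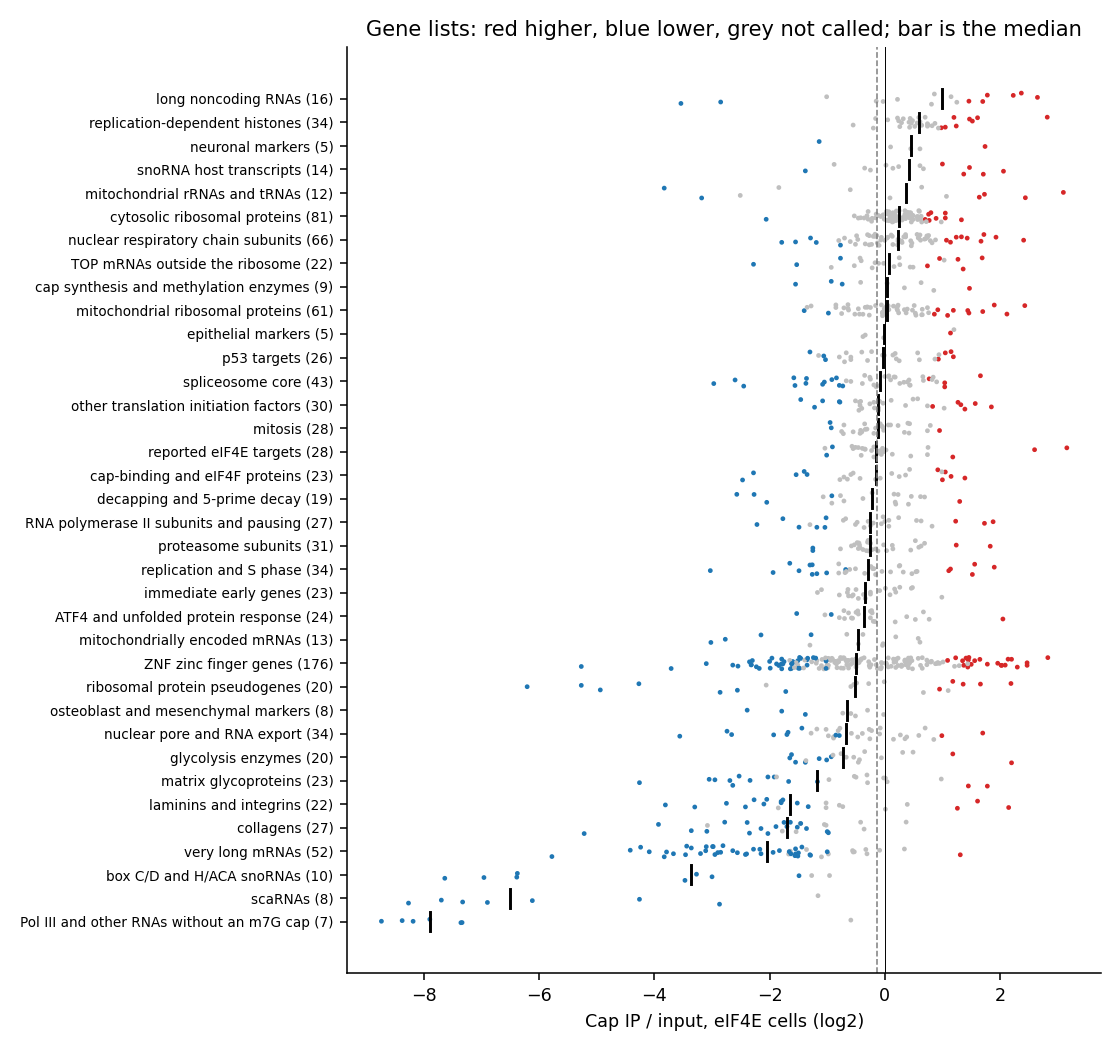
Log2 change of Cap IP over input in eIF4E cells for each tested row of every gene list with at least 5 tested rows (number in brackets), red for higher, blue for lower and grey for not called, with black bars at the list medians and a dashed line at the median of all rows. RNAs without an m7G cap, scaRNAs and snoRNAs lie far to the left, followed by very long mRNAs and collagens, and long noncoding RNAs and histones lie furthest to the right.

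Many of the largest gains were in rows with a gene on the other strand. MCMDC2, a meiotic gene opposite SNHG6, rose from 30.4, 59.6 and 60.8 CPM to 1735, 1541 and 474 CPM (log2 change 4.64 ± 0.53, adjusted p = 3.00e-06). TAF5, a TFIID subunit opposite USMG5, rose from 24.9, 61.1 and 49.3 CPM to 1454, 1244 and 383 CPM (4.51 ± 0.57). CCDC73, opposite EIF3M, rose from 186, 134 and 142 CPM to 2795, 2462 and 1306 CPM (3.82 ± 0.43), and FAM175A, opposite MRPS18C, changed by 3.74 ± 0.45. SSB, the La protein that binds new RNA polymerase III transcripts, and METTL5, an rRNA methyltransferase, lie opposite each other and rose by 4.54 ± 0.65 and 4.22 ± 0.53. In all of these Cap IP replicate 3 had the smallest Cap IP value.

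Rows with no exon opposite also included gains. RAD1, of the DNA damage clamp, rose from 106, 125 and 82.0 CPM to 497, 697 and 536 CPM (log2 change 2.47 ± 0.32). ZC3H6 was at 2.73 ± 0.43, DPF3 at 2.59 ± 0.69 and LINC00973 at 2.53 ± 0.34. Rows with no exon opposite had 343 called higher and 1429 lower of 4939, or 6.95% and 28.9%. Rows opposite a protein-coding gene had 949 higher and 561 lower of 3073, or 30.9% and 18.3%. Rows with no match in the annotation had 1145 higher and 343 lower of 2332. These tested rows took 45.0 to 47.1% of Cap IP counts against 28.3 to 31.7% of input counts.

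The 8 opposite-strand pairs with the most counts all shifted the same way. BEST1 rose from 6003, 4760 and 6711 CPM to 37029, 29269 and 17779 CPM (log2 change 2.27 ± 0.40, adjusted p = 1.39e-04), while the share of FTH1 in the pair went to 0.980, 1.24 and 1.42%. VIM-AS1 rose from 3973, 4632 and 6230 CPM to 18691, 22348 and 21216 CPM (2.07 ± 0.39), while the share of vimentin, VIM, went from 14.5, 13.9 and 12.4% to 3.14, 3.46 and 3.90%. SNX22 opposite PPIB (2.00), MIF-AS1 opposite MIF (2.52), ENOSF1 opposite TYMS (2.12) and MMACHC opposite PRDX1 (2.19) rose likewise, as did KRT8 opposite KRT18 (1.14) and ABALON opposite BCL2L1 (1.16). In every one of the 8, all Cap IP shares of the row with fewer counts were below all input shares.

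**Figure D5:**
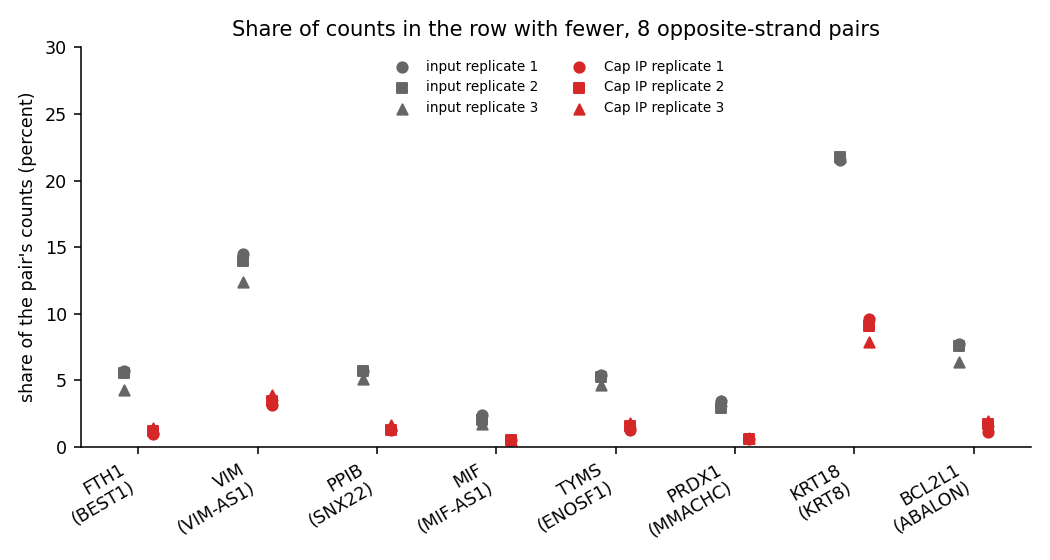
Percent of a pair's counts that fell in the row with fewer counts, for the 8 opposite-strand pairs with the most counts (the row with more in brackets), grey for input and red for Cap IP, with 1 symbol shape per replicate. All red points lie below the grey points of their pair, from FTH1 at 4.29 to 5.71% in input and 0.980 to 1.42% in Cap IP onwards.

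Across 570 such pairs with at least 1000 counts over the 6 libraries, the median share of the row with fewer counts was 21.4, 21.2 and 20.3% in the input replicates. In the Cap IP replicates it was 10.6, 11.2 and 12.8%. The Cap IP shares lay below all input shares in 333 pairs and above them in 69. The row with more counts was called higher in 316 and lower in 66 pairs. Which row held more was set by counts summed over the same 6 libraries, Cap IP included. A row that rose in Cap IP was thus likelier to be named so, and the pair tallies are descriptions. RPS25 was the row with fewer although it held 63.8, 52.9 and 50.6% of its pair in input. Of 129 pairs of a lncRNA and a coding row, 102 had more counts in the lncRNA row. The lncRNA rows opposite a coding gene had 246 called higher and 24 lower of 410 and a median of 1.28, whereas the 101 lncRNA rows with no exon opposite had 19 higher, 29 lower and a median of 0.

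Named long noncoding RNAs mostly belong to the first kind. OIP5-AS1, a cytoplasmic lncRNA, rose from 73.9, 62.6 and 90.3 CPM to 726, 432 and 272 CPM (log2 change 2.65 ± 0.41), and THUMPD3-AS1 was at 2.37, or 1.52 without Cap IP replicate 1. The nuclear TUG1 (-2.85) and KCNQ1OT1 (-3.54), which silences an imprinted cluster, fell. TUG1 had an adjusted p of 0.0695 and 0.0536 without Cap IP replicates 1 and 2 and 0.0605 without input replicate 2. The list had 6 higher and 2 lower of 16, beside 21.9% and 23.3% of all tested rows. Its 13 rows with an exon opposite had a median of 1.25, and its 3 rows without one a median of -0.03. Of the snoRNA host transcripts, ZFAS1 (2.06 ± 0.43) and SNHG22 (1.71 ± 0.27) rose, with 5 higher and 1 lower of 14, beside the same shares. The 11 host rows with an exon opposite had a median of 0.67, and the 3 without one a median of -0.88. These hosts are spliced RNA polymerase II transcripts whose introns hold snoRNAs.

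Cap IP against input in vector cells called 18.5% of the same rows higher and 21.0% lower. Of the 5625 rows called in eIF4E cells, 3854 were also called in vector cells, all in the same direction, which is 68.5% of the eIF4E calls and 78.3% of the vector calls. The 2 comparisons share no library. The test of the difference between them called 0 rows by edgeR and 0 by DESeq2, with 728 rows (5.84%) at an unadjusted p under 0.05 and a smallest adjusted p of 0.833. With the title stem as a replicate block, an alternative given below, some rows were called, all of them higher. RN7SK changed by -8.38 in both lines, and RN7SL1 by -8.74 in eIF4E and -9.45 in vector cells (difference 0.71, adjusted p = 0.914). SNORD3A changed by -3.85 and -4.23, EIF4E by 1.00 and 1.19, and HIST1H4I by 2.82 and 2.12. MCMDC2 and CCDC73 were higher by 1.03 and 1.35 in eIF4E than in vector cells on the log2 scale, with adjusted p of 0.847 and 0.833. These misses of the threshold do not show that the cap pulldown acted alike in both lines.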

How the data were processed

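RNA of 12 libraries was sequenced from KAPA RNA HyperPrep with RiboErase libraries, single-end over 75 cycles, per the labels' protocols. The deposited values are whole-number counts per gene row, made by the authors. STAR 2.5.1b, featureCounts 1.4.5-p1, DESeq2 and GRCh38.p5 are listed in the submitters' processing notes; annotation and strand setting: not given in the sources used here. No count was altered.

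Rows passing edgeR's filterByExpr (12460) were fitted with edgeR 4.0.16 (trimmed-mean scaling, 4 group means over 12 libraries, quasi-likelihood test, Benjamini-Hochberg adjustment over all tested rows, threshold 0.05). CPM uses the scaled library sizes. The fit was tested on simulated data. Replicates differed by more than counting noise (chi-square per degree of freedom 5.10 to 11.4), so none was a copy. Row names were matched to GENCODE release 44 for position, type and opposite exons: 33465 by symbol, 1624 by an older symbol and 23595 not; of tested rows 2332 were not matched. Bounds use a floor of 3 counts over a group, and floors and intervals cover counting error only.

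Named rows were EIF4E, the cap enzymes, all members of the lists of uncapped, trimethyl-capped and mitochondrial mRNA rows, up to 4 members per list with the smallest p, the largest called changes with groups that did not overlap at 3 abundance limits (average log2 CPM of at least 2, 6, or 4 with no exon opposite), and the 8 strand pairs with the most counts. Not every row the rule picks is reported here. ITPR1, RPS10L, TUG1, KCNQ1OT1, EIF4E3, EIF4G3, CYFIP1 and PAIP1 were chosen after their values were seen. The comparison, lists and rule were chosen with earlier results of these data known. Alternatives were DESeq2 1.42.0, other scalings, filters, a replicate block and leaving out libraries.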

Additional observations from a re-analysis of the deposited data

How the results depend on the processing

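The 5625 calls became 1553 with the 13 mitochondrial mRNAs as library sizes and 3432 with at least 50 counts in 3 libraries (5491 rows tested). They numbered 5316 with DESeq2 (4928 shared), 6967 with total counts, 6070 (40.6% higher) with no filter, 5253 with the 6 eIF4E libraries alone, and 4560 to 5350 without 1 library. Without both C6IV2F libraries 4700 were called. The difference from vector cells stayed at 0 calls except 3 with no filter and 51, all higher, with the title stem as a replicate block. That block gave 6690 calls for Cap IP against input. The stems are not stated to pair the libraries: the deviations of same-stem eIF4E libraries correlated at 0.354, 0.0797 and 0.111, against 0.429, 0.271 and 0.440 in vector cells. Among eIF4E libraries Cap IP replicate 2 correlated best with input replicate 3 (0.173), and over all libraries with vector input replicate 2 (0.177), which has its own stem. Not every pair was above 0.1, so the block was kept as an alternative. All same-stem correlations were above 0, and the count of rows that differ from vector cells depends on the use of the block. With the block MT-ND3 (adjusted p = 1.05e-04), MT-ND4L (0.0288), RNU12 (0.0255) and PCIF1 (0.0356) gained calls.

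Of 152 rows examined singly, 71 had the same direction and call under every alternative that tested them. With the mitochondrial mRNAs as library sizes 61 lost their call, and with total counts 27. Rows that changed sign were uncalled. With total counts these were PCIF1 (-0.19), RNMT (-0.49), FAM103A1 (-0.81), MT-ND2 (-0.63), MT-ND5 (-0.28), MT-ND6 (-0.23), RNU4-1 (-0.51) and SNORD3B-2 (-0.75). With mitochondrial sizes MT-ND1 was 0.06 and MT-ATP8 0. SNORD3B-2 was -0.01 with DESeq2 and -0.09 with no filter, and FAM103A1 -0.04 and -0.13, or -0.06 with the 6 eIF4E libraries alone. Without both C6IV2F libraries MT-ND1 was 0.03, MT-ATP8 0.47, FAM103A1 0.22, RNU4-1 1.26 and SNORD3B-2 0.83. Ranges without 1 library at a time were -0.26 to 0.23 for MT-ND1, -0.08 to 0.48 for MT-ND2, -0.09 to 0.95 for MT-ND5 and -0.54 to 0.36 for MT-ATP8. RNMT ranged from -0.02 to 0.80 and FAM103A1 from -0.16 to 0.18. RNU4-1 reached down to -0.39 and SNORD3B-2 to -0.32. The causes were not tested. Depth limits the rows at or near 0 counts in Cap IP.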

Other observations

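Over all tested rows 21.9% were higher and 23.3% lower in Cap IP of eIF4E cells, and the counts of the lists here are read against those shares. A share near or below them is no result about a list. Glycolysis enzymes were lower in 7 and higher in 2 of 20 tested rows, with PKM (pyruvate kinase) at a log2 change of -1.38 ± 0.29 and GPI at -1.65 ± 0.29; PDK1, a kinase that restrains pyruvate entry into mitochondria, was at 2.20 ± 0.45. Nuclear-encoded respiratory chain subunits had 9 higher and 5 lower of 66, with NDUFA1 at 1.67 ± 0.29 and ATP5J at 1.72 ± 0.33 above and ATP5B, the catalytic ATP synthase subunit, at -1.55 ± 0.33 below. Mitochondrial ribosomal proteins had 10 higher and 2 lower of 61, among them MRPL34 (1.19 ± 0.27) and MRPS18C (2.43 ± 0.48).

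Zinc finger rows had 22 higher and 39 lower of 176. ZNF592 went from 55.7, 56.7 and 68.0 CPM to 7.18, 5.80 and 7.93 CPM (-3.10 ± 0.35), and ZNF575, which lies opposite ETHE1, rose by 1.96 ± 0.31. Among translation initiation factors outside the cap-binding complex, EIF3J (1.85 ± 0.32, opposite SPG11) and EIF5B (1.57 ± 0.42, opposite REV1) were higher, in a list with 6 higher and 5 lower of 30. Proteasome subunits had 2 rows called in each direction of 31, with PSMA4 at 1.83 and PSMB7 at -1.25. DNAJB9 (2.05) rose and SLC7A5 (-1.53) fell in the unfolded protein response list, where 1 of 24 rows was higher and 2 were lower, and GADD45A (1.19) was 1 of 4 p53 targets that rose of 26.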
